A study of Homo sapiens with 6 samples.

Results

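This report describes the clustered histone genes in HCT-8, a colorectal cancer cell line of human origin. Its cells were transfected either with a plasmid for a hairpin RNA that targets PNISR (shPNISR) or with a control hairpin plasmid (shNC), and each group has 3 libraries. No agent other than the plasmids is named in the labels, which do not say how many hairpins were used, whether cells were selected, or whether the libraries came from separate cultures, so p-values measure only how far these samples vary, which could be technical variation. The genes were found by symbol among 60664 gene IDs: protein-coding genes named H1- with a number, or starting with H2AC, H2BC, H3C or H4C and a number. The table held 72 such genes, and 19 of them had a count of at least 10 in at least 3 of the 6 libraries, of which 18 are described here. The counts themselves chose these genes, without regard to group, so their levels are given as a description. PNISR encodes a serine and arginine rich nuclear protein, and the series concerns its part in alternative splicing, whereas only gene-level read counts were analysed here.

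Histones are the proteins around which DNA is wound. H2A, H2B, H3 and H4 form the nucleosome core, and H1 binds the linker DNA between nucleosomes. Most of their genes lie in clusters on chromosomes 6 and 1 and are transcribed in S phase, when new DNA has to be packaged. Their mRNAs are unusual in ending with a short stem-loop bound by the protein SLBP in place of a poly(A) tail, although several of these genes can also give longer, polyadenylated transcripts. The linker histone H1-10 lies outside the clusters, is expressed outside S phase and has a polyadenylated mRNA.

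The 18 genes comprised 2 H1 genes, 4 of 15 H2A genes, 8 of 19 H2B genes, 2 of 13 H3 genes and 2 of 15 H4 genes. H1-10 lies on chromosome 3 and H4C16 on chromosome 12, while the other genes lie on chromosomes 6 and 1. Of the 53 genes that were not kept, 14 had no read in any library. No single count among the 53 exceeded 15, and together they held 86, 103 and 94 reads in shPNISR 1 to 3 and 116, 78 and 101 reads in shNC 1 to 3. Just inside the threshold, with 4 libraries at 10 or more, were H2BC6, H4C8 and H4C16. Just outside it was H2AC13, at 5, 9 and 10 reads in shPNISR and 15, 5 and 8 in shNC. H2BC9, H2BC17, H2BC18, H3C2 and H4C9 reached 10 in 1 library each.

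The 3′ stem-loop was searched for in the GENCODE release 29 transcripts, since it is the feature that sets this family's mRNAs apart. It was found in 12 of the 18 genes. The annotated models of the other 6 held no match, and some of those models, H2BC12 among them, stop close to the coding sequence. The sites below stand for the forms found, written as DNA with 5 flanking bases on each side and with the stem-loop in capitals.
H2AC25: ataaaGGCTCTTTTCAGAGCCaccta
H2BC21: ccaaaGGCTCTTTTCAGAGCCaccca
H3C10: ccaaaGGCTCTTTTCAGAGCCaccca
H2BC5: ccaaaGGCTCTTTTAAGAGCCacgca
H2AC11: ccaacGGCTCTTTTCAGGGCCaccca
H4C8: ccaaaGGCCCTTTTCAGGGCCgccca
The form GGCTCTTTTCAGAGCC was shared by 7 genes (H2AC6, H2AC25, H2BC6, H2BC15, H2BC21, H2BC26 and H3C10). The form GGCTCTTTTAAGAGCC was found in H2BC4 and H2BC5, and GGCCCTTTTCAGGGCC in both H4 genes. H2AC11 alone among the 18 carried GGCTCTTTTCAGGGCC.

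Many of the 18 genes have annotated transcripts that run past the stem-loop or are spliced. In 11 of 18 genes a coding transcript continued for more than 50 bases beyond it (61.1%). Among the 51 family genes below the threshold that release 29 annotates, 13 had one (25.5%). The stem-loop itself was found in 12 of the 18 and in 16 of the 51 (66.7% against 31.4%). A run past it can be counted only there, and among those genes it was 11 of 12 and 13 of 16. A spliced coding transcript was annotated for 8 of the 18 and 2 of the 51 genes. Either feature was present in 14 of the 18 (77.8%) and in 14 of the 51 (27.5%). The median length of the longest coding transcript was 1136 bases for the 18 genes and 411 bases for the others. These shares describe the annotation. They were not tested, and annotated length also differed between the 2 sets.

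Libraries differed in ways that touch these genes. Total counts ranged from 15703210 to 17299847 in shPNISR and from 15049485 to 17977803 in shNC. On the first principal component of all tested genes (44.8% of the variance) shPNISR 1 to 3 scored 24.1, 24.6 and 16.9, and shNC 1 to 3 scored -35.2, 0.787 and -31.2, so that shNC 2 stood apart from the other shNC libraries. Results are therefore given with and without it. PNISR was at 18.5, 20.7 and 27.6 CPM in shPNISR and 55.3, 50.2 and 62.8 CPM in shNC, where CPM is the usual per-million read count, taken on TMM-scaled library totals (log2 fold change -1.33 ± 0.15 SE, edgeR quasi-likelihood test, adjusted p = 8.73e-05). Epithelial markers were present, with KRT8 at 33838 reads or more in every library and EPCAM at 1473 or more, though KRT20 had at most 7 reads. Markers of other cell types were low: the 6 leukocyte markers summed to 5.45 to 6.70 CPM in shPNISR and 4.36 to 5.66 CPM in shNC, the 8 fibroblast markers to 33.4 to 43.4 and 28.2 to 45.7 CPM, and the 4 endothelial markers to 1.41 to 1.66 and 0.718 to 1.49 CPM, with PTPRC and COL1A2 at 0 in all 6 libraries. Among these lists LYZ was lower (1, 5 and 8 reads in shPNISR, 16, 21 and 21 in shNC) and KRT19 higher (log2 fold change 0.61 ± 0.15, edgeR adjusted p = 0.0365). LYZ was called in 10 of the 15 alternatives that held it. Those without the call included library totals (edgeR adjusted p = 0.0605) and the fits without shPNISR 1, 2 or 3 (0.1885, 0.0686 and 0.0564). The KRT19 call ended with GC content and length corrected for (0.0966) and without shPNISR 1, 2 or 3 or shNC 1 (0.1585, 0.0955, 0.0571 and 0.1686). The part of these genes in the results was not tested.

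None of the 18 histone genes passed the comparison of shPNISR with shNC (two-sided quasi-likelihood test in edgeR, with p adjusted by Benjamini-Hochberg over 16102 tested genes and a threshold of 0.05). Of all tested genes 3.14% passed, 2.30% higher and 0.832% lower. The smallest adjusted p among the 18 was 0.161, for H2BC6. At an unadjusted p under 0.05 there were 2 of the 18 (11.1%), H2BC6 and H2BC21, against 17.8% of all tested genes, and both were lower, against 7.79%. Fitted values lay above 0 for 7 genes and below 0 for 11 (61.1%, against 52.1% of all tested genes), from 0.63 for H2BC4 to -1.16 for H2BC6, with a median of -0.06 against -0.01 for all tested genes. Limma voom called 0 of the 18. DESeq2 called 0 of the 14 for which it gave an adjusted p; for the sparse genes H2BC4, H2BC6, H4C8 and H4C16 it gave none, and its unadjusted p for H2BC6 was 0.056. Without shNC 2, when 12.3% of all tested genes passed, again 0 of the 18 did. The smallest adjusted p was then 0.0892, for H1-10, and 4 genes had an unadjusted p under 0.05, as did 26.8% of all tested genes in that fit.

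The width of the intervals sets what this count can show. For H1-2, H2BC12, H2AC25 and H1-10 the standard error of the log2 fold change was 0.15 or less, whereas for H2BC4, H2BC6, H4C8 and H4C16, with means under 1 CPM, it was between 0.43 and 0.45. All 18 genes passed the low-count filter, and each reached a count of 10 in at least 1 library of each group. H2BC6 reached it in all 3 shNC libraries (20, 14 and 13 reads) but in 1 shPNISR library (5, 10 and 6). Its shNC libraries alone were thus enough to meet the count rule, and its shPNISR libraries were not.

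**Figure D1:**
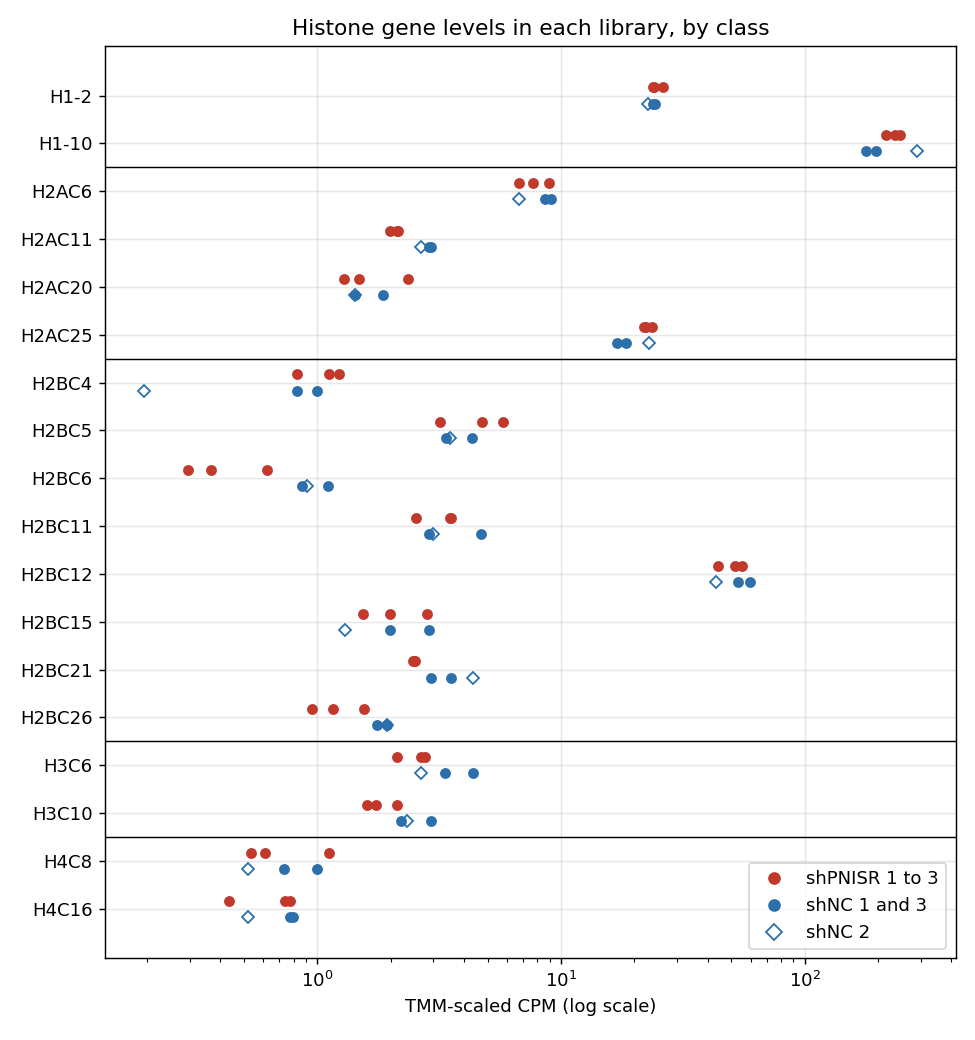
TMM-scaled CPM (log axis) of the 18 histone genes in each library, grouped by histone class from H1 at the top to H4 at the bottom. For each gene the shPNISR libraries are on the upper row and the shNC libraries on the lower row, with shNC 2 as an open diamond. H1-10 lies above 170 CPM in every library and is highest in shNC 2.

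Among the linker histone genes, H1-10, a divergent form with a GC-rich mRNA, had 234, 247 and 216 CPM in shPNISR and 178.5, 289 and 197 CPM in shNC. The shNC 2 library was highest, while shNC 1 and shNC 3 lay below all 3 shPNISR libraries. The log2 fold change was 0.07 ± 0.15 (SE, 95% interval -0.25 to 0.39, edgeR adjusted p = 0.847) and 0.31 ± 0.12 without shNC 2 (adjusted p = 0.0892). A correction for GC content and transcript length turned it to -0.22 (adjusted p = 0.362). Exons of H1-10 overlap the antisense gene H1-10-AS1, which had 214, 221 and 185 reads in shPNISR and 197, 279 and 194 in shNC beside 3952, 3984 and 3527 and 3233, 4459 and 2953 for H1-10. Without a stated strand setting reads in the overlap cannot be assigned.

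H1-2, an S-phase linker histone gene, varied little. It had 24.1, 26.1 and 23.8 CPM in shPNISR and 24.3, 22.8 and 24.0 CPM in shNC. The groups overlapped, and the log2 fold change was 0.06 ± 0.13 (95% interval -0.22 to 0.33, edgeR adjusted p = 0.86). The other H1 genes of the clusters, H1-1, H1-3, H1-4, H1-5 and H1-6, reached at most 8 reads in any library.

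Among the H2A genes, H2AC25 was the most abundant per length. It had 23.7, 21.8 and 22.3 CPM in shPNISR and 16.95, 23.0 and 18.6 CPM in shNC. The shNC 2 value lay among the shPNISR values, and the other 2 shNC libraries lay below them (log2 fold change 0.21 ± 0.15, 95% interval -0.09 to 0.52, edgeR adjusted p = 0.472). Without shNC 2 it was 0.35 ± 0.14 (adjusted p = 0.113), without shNC 1 it was 0.12 (adjusted p = 0.901), and it was 0.03 once GC content and length were corrected for. H2AC6 had 7.70, 8.93 and 6.75 CPM in shPNISR and 9.11, 6.73 and 8.59 CPM in shNC, with overlapping groups.

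H2AC11 separated the groups without passing the test. It had 36, 32 and 35 reads in shPNISR, or 2.13, 1.985 and 2.15 CPM, and 53, 41 and 43 reads in shNC, or 2.93, 2.65 and 2.86 CPM. The log2 fold change was -0.43 ± 0.25 (95% interval -0.96 to 0.10, edgeR adjusted p = 0.393). H2AC20, at 25, 38 and 21 reads in shPNISR and 26, 22 and 28 in shNC, overlapped between groups, and 30.5% of its 50-base stretches also occur in transcripts of other genes.

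H2B was the class with the most genes above the threshold. H2BC12 had 55.4, 51.8 and 44.1 CPM in shPNISR and 53.1, 43.4 and 59.5 CPM in shNC, and so overlapped fully (log2 fold change -0.05 ± 0.14, 95% interval -0.33 to 0.24, edgeR adjusted p = 0.899, and -0.26 ± 0.12 with GC content and length corrected for, adjusted p = 0.275). In the release 29 transcripts 74.1% of its 50-base stretches recur in other genes, so its count is uncertain. H2BC5 had 54, 93 and 77 reads in shPNISR and 61, 54 and 65 in shNC, and H2BC11 had 43, 57 and 57 in shPNISR and 85, 46 and 43 in shNC; both overlapped. H2BC15 had 26, 32 and 46 reads in shPNISR and 36, 20 and 43 in shNC, and its exons overlap H2AC15 and H2AC16.

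The 3 H2B genes whose groups did not overlap were all lower in shPNISR, and none passed. H2BC6 had 5, 10 and 6 reads in shPNISR and 20, 14 and 13 in shNC, with a log2 fold change of -1.16 ± 0.43 (95% interval -2.07 to -0.25, edgeR adjusted p = 0.161) and -1.21 ± 0.49 without shNC 2 (adjusted p = 0.114). H2BC21 had 42, 40 and 41 reads in shPNISR and 64, 67 and 44 in shNC (-0.53 ± 0.25, 95% interval -1.05 to -0.01, adjusted p = 0.273). H2BC26 had 16, 25 and 19 reads in shPNISR and 32, 30 and 29 in shNC (-0.62 ± 0.31, 95% interval -1.28 to 0.04, adjusted p = 0.314). H2BC6 is a gene of few reads, and its exons overlap an antisense gene. Of its 50-base stretches 30.5% also occur, on either strand, in transcripts of other genes, most often that antisense gene. H2BC4 had the highest fold change of all 18 genes, with 14, 18 and 20 reads in shPNISR and 15, 3 and 15 in shNC (0.63 ± 0.45, adjusted p = 0.492). With only 3 reads in shNC 2, that value depended on this library and was 0.21 ± 0.41 without it (adjusted p = 0.784). Without shNC 3 it was 0.99 (adjusted p = 0.353).

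Both H3 genes had lower fitted values in shPNISR and did not pass. H3C10 had 36, 28 and 26 reads in shPNISR and 53, 36 and 33 in shNC, or 2.13, 1.74 and 1.59 CPM against 2.93, 2.33 and 2.20 CPM, so that the CPM ranges did not overlap (log2 fold change -0.45 ± 0.28, 95% interval -1.03 to 0.13, edgeR adjusted p = 0.417). H3C6 had 36, 43 and 45 reads in shPNISR and 79, 41 and 50 in shNC, with shNC 2 inside the shPNISR range in CPM (-0.46 ± 0.26, adjusted p = 0.378, -0.62 ± 0.26 without shNC 2, adjusted p = 0.126, and -0.25 without shNC 1, adjusted p = 0.881). The H4 genes were the sparsest. H4C8 had 9, 18 and 10 reads in shPNISR and 18, 8 and 11 in shNC, and H4C16 had 13, 7 and 12 in shPNISR and 14, 8 and 12 in shNC. Their 95% intervals ran from -0.91 to 0.89 and from -1.001 to 0.79. Changes within those ranges are compatible with the counts, and the intervals set no limit of detection.

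Counted over the classes, the CPM ranges of the groups did not overlap for 5 of the 18 genes (27.8%), namely H2AC11, H2BC6, H2BC21, H2BC26 and H3C10. All 5 were lower in shPNISR, and for H2BC6 the shNC libraries alone were enough to meet the count rule. Of all tested genes 21.1% had ranges that did not overlap, 9.58% lower and 11.5% higher. Since the genes were chosen with results of these data known, no test was made of this count.

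**Figure D2:**
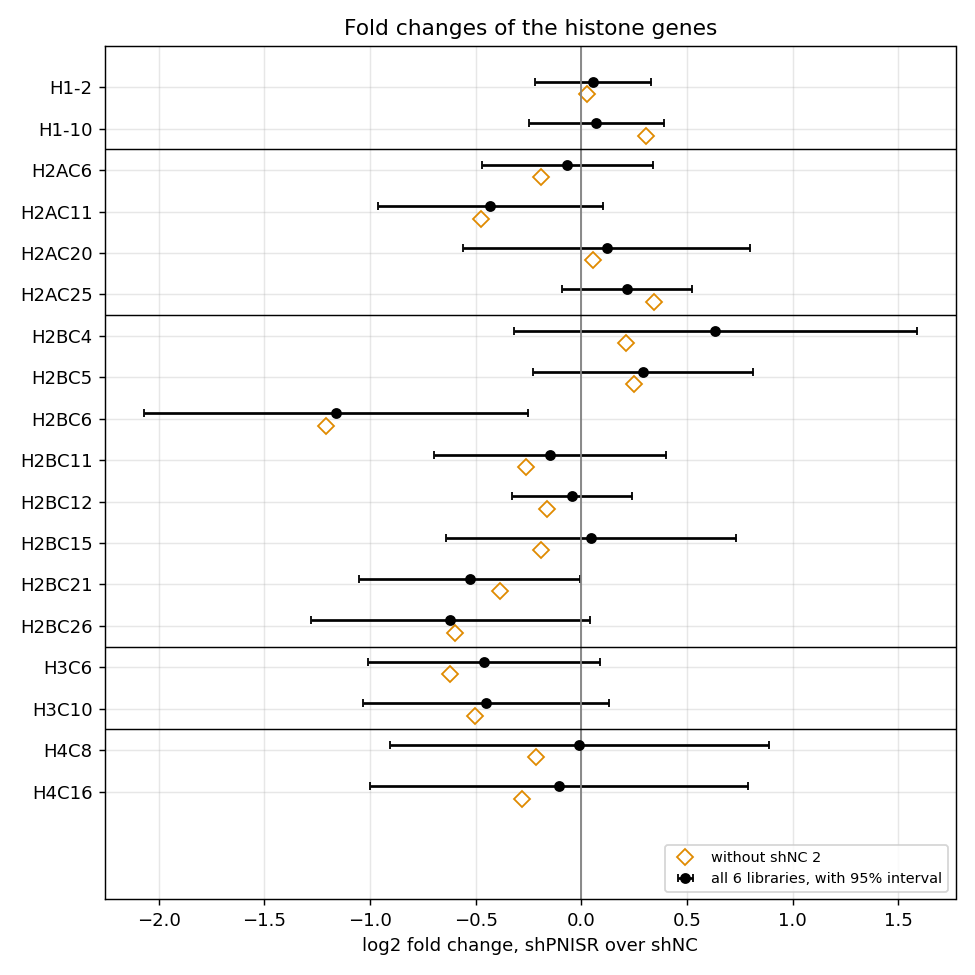
Log2 fold change of shPNISR over shNC for the 18 histone genes (horizontal axis), with black points and 95% intervals for all 6 libraries and open orange diamonds for the fit without shNC 2. The intervals of H2BC6 and H2BC21 lie below 0 before adjustment, and leaving out shNC 2 moves H2BC4 from 0.63 to 0.21.

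Summed by class, H2A members held 35, 35.1 and 32.5 CPM in shPNISR and 30.4, 33.8 and 31.9 CPM in shNC. H2B members held 67.2, 68.8 and 60.4 CPM in shPNISR and 70.4, 58.6 and 76.3 CPM in shNC. The H2A and H2B sums of the groups overlapped. The H3 sum was 4.26, 4.40 and 4.35 CPM in shPNISR and 7.29, 4.99 and 5.53 CPM in shNC, with no overlap, and the H4 sum was 1.30, 1.55 and 1.35 CPM in shPNISR and 1.77, 1.04 and 1.53 CPM in shNC, with overlap. H1-10 alone held 64.0, 64.5 and 63.9% of the reads of the 18 genes in shPNISR and 57.1, 70.4 and 58.5% in shNC. The other 17 genes summed to 130 ± 6.98 CPM in shPNISR and 131.5 ± 9.32 CPM in shNC (SD, n = 3 each). These sums carry no test. In bulk RNA the share of cells in S phase and the amount of histone mRNA per cell cannot be told apart.

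**Figure D3:**
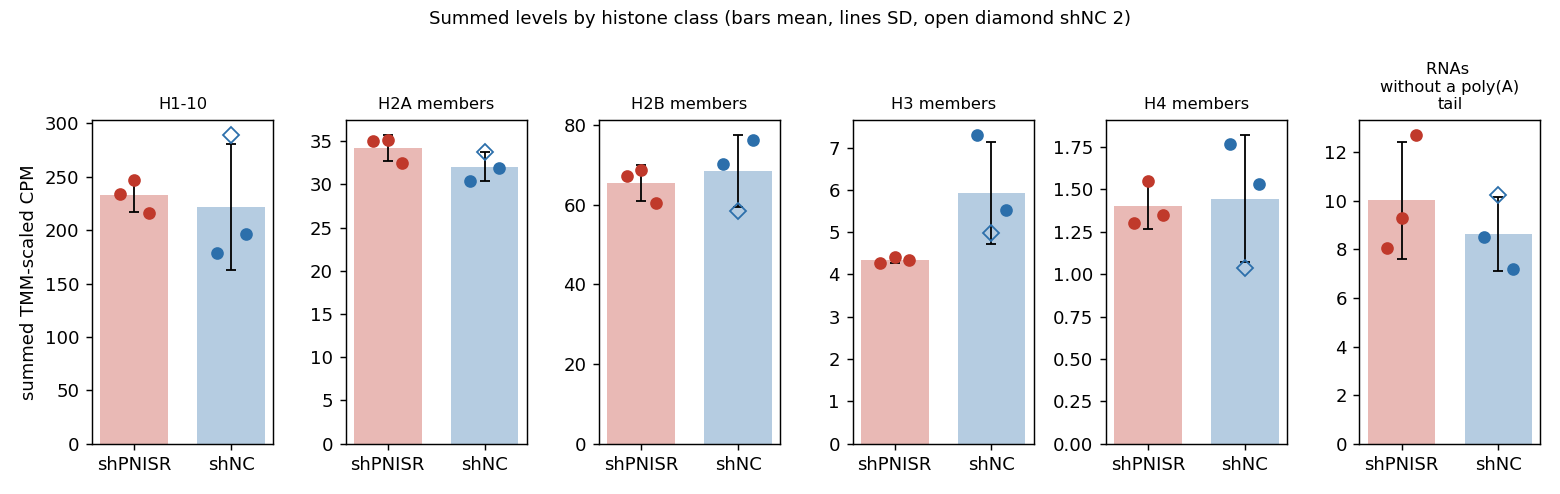
Summed TMM-scaled CPM (vertical axis, starting at 0) for H1-10, for the H2A, H2B, H3 and H4 genes, and for 25 RNAs without a poly(A) tail. Bars are means of 3 libraries and lines the SD, points are libraries, and the open diamond is shNC 2, which is the highest library of the first panel at 289 CPM and the lowest of the H4 panel at 1.04 CPM.

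Divided by exon length (RPKM, from TMM-scaled CPM and GENCODE release 29 exon lengths, which may differ from the models the authors counted), a pair of genes stood at a similar level. H1-10 was at 154 ± 10.3 RPKM in shPNISR and 147 ± 39.2 in shNC, and H2BC12 at 132 ± 15.1 in shPNISR and 137 ± 21.3 in shNC (SD, n = 3 each). In shNC the levels of the pair did not differ beyond their spread. In shPNISR the mean of H1-10 was above that of H2BC12, and the difference was not tested. The level of H2BC12 rests on an annotated length of 381 bases and would be lower with a longer model. H1-2 followed at 38.4 ± 1.96 RPKM in shPNISR and 36.9 ± 1.27 in shNC, and then H2AC25 at 25.3 ± 1.07 and 21.8 ± 3.49. The other 14 genes were at 5.24 RPKM or less in both groups. The lowest levels were 0.166 ± 0.0658 RPKM for H2BC6 in shPNISR and 0.270 ± 0.0603 RPKM for H4C16 in shNC.

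For scale, the 10 histone genes outside the clusters that were listed beside the family took 0.245, 0.265 and 0.242% of all counts in shPNISR and 0.256, 0.233 and 0.282% in shNC. The 18 genes took 0.0357, 0.0374 and 0.0352% in shPNISR and 0.0315, 0.0408 and 0.0335% in shNC. None of these 10 passed the test. H2AZ1, an H2A variant placed at promoters, was at 832 ± 89.6 CPM in shPNISR and 826 ± 105 CPM in shNC, and H3-3B, which encodes the replication-independent H3.3, was at 510 ± 34.8 CPM in shPNISR and 573 ± 56.7 CPM in shNC. Their mRNAs are polyadenylated.

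RNAs without a poly(A) tail were read as a measured companion of the clustered genes, because the labels name total RNA as the molecule and do not say whether poly(A) selection was used. The 25 listed took 0.001004 ± 0.000279% of counts in shPNISR and 0.000864 ± 0.000150% in shNC (exact permutation test, two-sided, p = 0.6, n = 3 each, where 0.1 is the smallest possible). Of the 25, 13 had no read in any library, among them RN7SK and RMRP, abundant nuclear RNAs. RN7SL1 had 122, 132 and 198 reads in shPNISR and 136, 139 and 88 in shNC. SNORD3A had 15 or fewer in each library, and no other exceeded 4. The 25 summed to 136, 150 and 207 reads in shPNISR and 154, 158 and 108 in shNC. Their share and its test thus rest mainly on RN7SL1. The part of these RNAs in the low counts of the clustered genes was not tested.

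Genes for the machinery that makes and ends histone mRNAs were taken from a list of 20, all tested. Of these 0 passed higher, 1 lower and 19 not at all, where 2.30% of all tested genes passed higher and 0.832% lower. Fitted values lay below 0 for 16 (80.0%, against 52.1% of all tested genes). The median log2 fold change was -0.15 against -0.01 for all tested genes. The gene that fell was NCBP1, which encodes the larger subunit of the nuclear cap-binding complex, at 86.7 ± 1.80 CPM in shPNISR and 116 ± 10.1 CPM in shNC (log2 fold change -0.42 ± 0.11, edgeR adjusted p = 0.0387, with all 3 shPNISR libraries below all 3 shNC libraries). Its call ended without any 1 of shPNISR 1, shPNISR 2, shPNISR 3, shNC 1 or shNC 3, where the adjusted p was 0.1675, 0.102, 0.103, 0.2355 and 0.0753, and with GC content and length corrected for (0.0845). With the replicate number as a block it was 0.0665. ERI1, the exonuclease that trims and degrades histone mRNA from its stem-loop end, was at 22.9 ± 2.18 CPM in shPNISR and 31.3 ± 4.58 CPM in shNC and did not pass (adjusted p = 0.094, and 0.00739 without shNC 2). SLBP, which binds the stem-loop, was at 140 ± 14.5 CPM in shPNISR and 138 ± 12.1 CPM in shNC (0.02 ± 0.11, adjusted p = 0.957). NPAT, the coactivator of histone transcription, was at 16.1 ± 1.02 CPM in shPNISR and 18.8 ± 0.563 CPM in shNC (-0.23 ± 0.14, adjusted p = 0.427). ERI1, SLBP and NPAT were chosen after their values were seen.

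Of 24 histone chaperone genes 23 were tested and 0 passed in either direction. Fitted values lay below 0 for 19 (82.6%, against 52.1% of all tested genes), with a median of -0.09 against -0.01. SET, a chaperone and phosphatase inhibitor, was at 792 ± 58.7 CPM in shPNISR and 857 ± 101 CPM in shNC, and SSRP1, a subunit of the FACT complex, at 670 ± 55.5 and 672 ± 5.14 CPM. Of all tested genes 2.30% passed higher and 0.832% lower. Of 34 genes of S phase and DNA replication, the phase in which clustered histone genes are transcribed, 0 rose, 1 fell and 33 did not pass. Their median was -0.12 against -0.01 for all tested genes, with 28 fitted values below 0 (82.4%, against 52.1%). The one that fell was CDC6, which loads the replicative helicase, at 73.9 ± 9.03 CPM in shPNISR and 119 ± 15.1 CPM in shNC (-0.69 ± 0.12, edgeR adjusted p = 0.0041). Its adjusted p was 0.0515 without shPNISR 3. Without shNC 2 the processing list had 2 genes lower, the chaperones 1 lower, and the S phase list 1 higher and 5 lower, out of 20, 23 and 34 tested. In that fit 7.78% of all tested genes were higher and 4.52% lower.

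In 4 places in the genome an H2A and an H2B gene, both above the threshold, lie head to head and share the DNA between their start sites. These stretches are shown because each pair reads out 1 promoter region in both directions. They come from RefSeq (GRCh38.p14) and run 5′ to 3′ on the plus strand from the base after one start site to the base before the other. Capitals mark 3 motifs, each searched on both strands. The first is the TATA motif, searched as TATAAA, and the second is the CCAAT motif, searched by those letters. The last is the octamer, for which the letters searched were ATTTGCAT. In H2BC11 with H2AC11 2 TATAAA matches on opposite strands overlap.
H2BC4 and H2AC6, chr6:26123927-26124171: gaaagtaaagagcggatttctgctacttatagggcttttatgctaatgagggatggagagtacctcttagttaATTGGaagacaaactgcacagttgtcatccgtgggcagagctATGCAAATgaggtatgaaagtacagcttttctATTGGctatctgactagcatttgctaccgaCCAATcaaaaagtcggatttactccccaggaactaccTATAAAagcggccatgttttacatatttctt
H2BC11 and H2AC11, chr6:27132796-27133042: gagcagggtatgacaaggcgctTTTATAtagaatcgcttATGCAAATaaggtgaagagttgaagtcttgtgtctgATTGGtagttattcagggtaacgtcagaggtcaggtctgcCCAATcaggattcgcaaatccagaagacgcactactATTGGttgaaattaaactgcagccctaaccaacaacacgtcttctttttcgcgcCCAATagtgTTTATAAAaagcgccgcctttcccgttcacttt
H2BC21 and H2AC20, chr1:149886683-149886917: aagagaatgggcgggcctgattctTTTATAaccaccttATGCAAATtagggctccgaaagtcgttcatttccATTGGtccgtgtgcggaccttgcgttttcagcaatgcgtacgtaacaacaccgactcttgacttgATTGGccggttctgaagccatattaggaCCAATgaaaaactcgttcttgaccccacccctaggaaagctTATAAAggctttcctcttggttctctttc
H2AC25 and H2BC26, chr1:228457874-228458102: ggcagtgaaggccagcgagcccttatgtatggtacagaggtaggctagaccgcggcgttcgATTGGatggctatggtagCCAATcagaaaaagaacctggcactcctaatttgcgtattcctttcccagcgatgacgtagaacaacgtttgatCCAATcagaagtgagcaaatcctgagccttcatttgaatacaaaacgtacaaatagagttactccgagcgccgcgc
The first 3 stretches each hold 1 octamer and between 1 and 3 TATAAA matches. The stretch between H2AC25 and H2BC26 holds neither, and it has 3 CCAAT matches. Over 300-base promoters (250 bases before the start site and 50 after), which RefSeq gave for all 18 genes, TATAAA on either strand was present in 13 of 18, CCAAT in 15 of 18 and ATTTGCAT in 8 of 18. Among all 27305 genes with a promoter in that table the shares were 14.0%, 39.7% and 2.19%. The octamer matches were in 3 of 4 H2A genes and 5 of 8 H2B genes, and in none of the 6 genes of the other classes. Partners of a pair share the stretch between them, so 1 site there can count for both genes. A match describes these letters only.

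The genes of a pair did not have like counts in every pair. H2AC25 had 400, 352 and 364 reads in shPNISR and 307, 355 and 279 in shNC, while H2BC26 across the shared stretch had 16, 25 and 19 in shPNISR and 32, 30 and 29 in shNC. The H2A to H2B count ratio of this pair was therefore 25, 14.1 and 19.2 in shPNISR and 9.59, 11.8 and 9.62 in shNC. Every shPNISR ratio was above every shNC ratio, a difference noticed after the values were seen and not tested. H2AC6 had 130, 144 and 110 reads in shPNISR and 165, 104 and 129 in shNC, and its partner H2BC4 had 20 or fewer in each library. The ratio of that pair was 9.29, 8.00 and 5.50 in shPNISR and 11, 34.7 and 8.60 in shNC, where the value of 34.7 rests on the 3 H2BC4 reads of shNC 2. For H2AC11 with H2BC11 the ratios were 0.837, 0.561 and 0.614 in shPNISR and 0.624, 0.891 and 1.00 in shNC. For H2AC20 with H2BC21 they were 0.595, 0.950 and 0.512 in shPNISR and 0.406, 0.328 and 0.636 in shNC. Both of these overlapped between groups. The annotated exon lengths of partners differ (895 bases for H2AC25 and 2364 for H2BC26), so the ratios compare libraries and not the genes' levels.

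**Figure D4:**
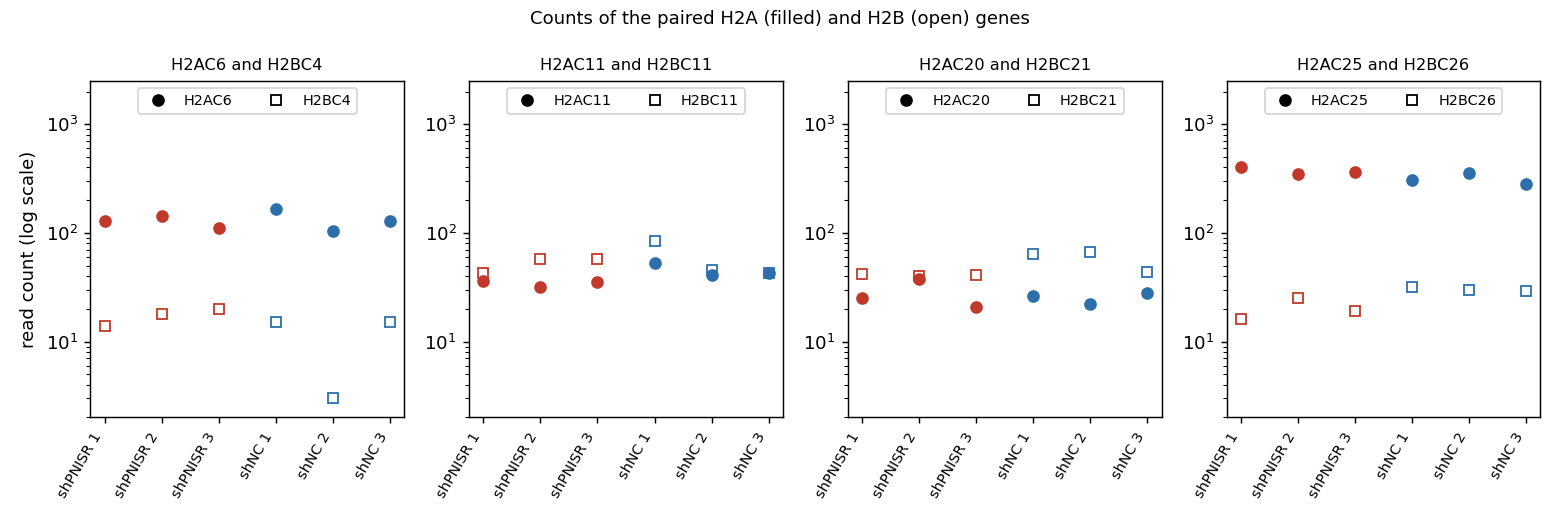
Read counts (log axis) of the 4 head-to-head pairs in each library, with H2A genes as filled circles and H2B genes as open squares, shPNISR in red and shNC in blue. H2AC25 lies well above H2BC26 in all 6 libraries, and H2BC4 drops to 3 reads in shNC 2.

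The libraries with the extreme values differed from gene to gene. In shNC 2, 3 of the 18 genes had their highest level (H1-10, H2BC21 and H2BC26) and 6 their lowest, against 15.4% and 14.5% of all tested genes. In shNC 1, 6 genes had their highest level and 2 their lowest, against 18.2% and 20.5%.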

How the data were processed

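The deposited table gave whole-number read counts per gene for 6 libraries, which the authors did not normalize. The submitters' processing notes list HISAT2 2.0.4 and genome build GRCh38; not given in the sources used here are the counting program, the annotation release and the strand setting. Ensembl IDs were paired with current symbols for 60463 of 60664 IDs. Of 74 symbols that fit the naming rule, 72 were in the table. Of the 19 genes that met the count rule, 1 is not reported here, and every count and sum over the members leaves it out. The members and gene lists were chosen with earlier results of these data known.

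Counts were fitted with edgeR 4.0.16 (R 4.3.3): low-count filter (minimum count 10, minimum total 15), TMM factors, robust quasi-likelihood test of shPNISR against shNC, and Benjamini-Hochberg adjustment over 16102 genes with a threshold of 0.05. Standard errors and 95% intervals came from the same fit. The procedure was also run on simulated counts. Genes of low mean count were not among those changed there. That run therefore does not cover H2AC11, H2BC6, H2BC21, H2BC26 and H3C10, whose CPM ranges did not overlap, or other genes with as few reads. Alternatives were other scaling factors, other low-count filters, non-robust dispersion, a block for replicate number, a loess correction for GC content and length (span 0.4), leaving out each library, DESeq2 1.42.0 and limma 3.58.1 voom. Library totals of 15049485 to 17977803 counts set the precision, and intervals of low genes are wide.

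Genes were named by a rule: PNISR; every member that passed; in each class the 3 members with the highest mean CPM, the 2 with the smallest adjusted p, and those with the highest and lowest fold change; in each related list every gene that passed or, with none, the 2 with the highest CPM; and members at the edge of the count threshold. Others are named to account for the 18 members described. Exon lengths, overlaps, 50-base repeats and stem-loops came from GENCODE release 29, and promoters from RefSeq (GRCh38.p14).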

Additional observations from a re-analysis of the deposited data

How the results depend on the processing

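In the 14 alternatives that gave an adjusted p for all 18 histone genes, 0 of the 18 passed in either direction. DESeq2 and the filter on a mean of at least 1 CPM gave one for 14 of them, without H2BC4, H2BC6, H4C8 and H4C16, and 0 of the 14 passed. Of 280 fold changes of these genes under the alternatives, 19 had the opposite sign, in 9 genes whose fold change was 0.15 or less in size; the cause was not tested. The correction for GC content and length gave -0.13 for H1-2, -0.22 for H1-10, -0.11 for H2AC20 and 0.0121 for H4C8, and upper-quartile factors gave 0.0177 for H4C8. Leaving out 1 library at a time gave ranges of -0.0634 to 0.307 for H1-10 (sign changed without shNC 1 or shNC 3), -0.189 to 0.0271 for H2AC6 (sign changed without shPNISR 3 or shNC 1), -0.185 to 0.284 for H2AC20 (sign changed without shPNISR 2), -0.276 to 0.125 for H2BC11 (sign changed without shNC 1), -0.162 to 0.0601 for H2BC12 (sign changed without shPNISR 3 or shNC 3), -0.215 to 0.35 for H2BC15 (sign changed without shPNISR 3 or shNC 2), -0.402 to 0.264 for H4C8 (sign changed without shPNISR 1 or shPNISR 3 or shNC 1) and -0.279 to 0.102 for H4C16 (sign changed without shPNISR 2). Over all tested genes, 371 higher became 642 with no low-count filter and 133 to 1284 with 1 library left out. The 134 lower became 71 with library totals, 354 with no filter, 210 with the GC and length correction, 231 with DESeq2 and 30 to 746 with 1 library left out. In the related lists 1 gene higher became 3 with no filter, 0 with the GC and length correction and 0 to 5 with 1 library left out, and 3 lower became 6 with no filter and 0 to 9 with 1 library left out. With the replicate number as a block 390 genes were higher and 118 lower, with 0 of the 18 among them. Same-numbered libraries had correlations of 0.119, -0.0814 and -0.15 once group means were taken out. So few values cannot show whether same-numbered libraries shared more than a number. The share of all counts held by the 18 genes differed by 0.000842 percentage points (shPNISR minus shNC), and by -0.00104 (without shNC 1) to 0.0036 (without shNC 2) with 1 library left out.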

Other observations

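H2BC19P and H2BC20P, annotated as H2B pseudogenes and so outside the family counted above, had more reads than most of its H2B genes. This compares reads and not levels, since their annotated exon lengths are 3612 and 6440 bases. Per length they were at 0.71 and 0.66 RPKM in shPNISR and 1.21 and 1.11 RPKM in shNC. H2BC19P had 33, 46 and 47 reads in shPNISR and 76, 58 and 78 in shNC. H2BC20P had 55, 54 and 101 reads in shPNISR and 136, 114 and 99 in shNC. Neither passed (edgeR quasi-likelihood test, Benjamini-Hochberg adjusted p = 0.1015 for both). Over the 16 alternatives the adjusted p of H2BC19P ran from 0.0297 to 0.394, with 1 passing. That of H2BC20P ran from 0.0312 to 0.397, with 2 passing. Both were chosen after their values were seen.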
